A study of Homo sapiens with 12 samples.

Results

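RBM3 and CIRBP encode the best known cold-inducible RNA-binding proteins of mammalian cells, and they are described here by every probe set that the platform's gene table assigns to either symbol alone. These are 2 of the 18132 genes that the arrays read with a probe set of their own. The rule finds 5 of the 49395 probe sets, 2 for RBM3 and 3 for CIRBP, and no probe set that lists either gene together with another. Messenger RNA was measured on 12 Affymetrix PrimeView arrays, 3 in each of 4 groups. The cells were THP-1, which derives from a human monocytic leukaemia and becomes macrophage-like under the phorbol ester PMA. In the temperature experiment, cells differentiated with 100 ng/ml PMA for 48 hours were held at 37 °C or at 40 °C, the temperature of a fever. The protocol lists harvests of the 40 °C cells at 2, 8 and 24 hours, and which of these the arrays hold is not stated. In the inhibitor experiment, cells were differentiated at 40 °C, also with 100 ng/ml PMA for 48 hours. They were nucleofected with a hairpin microRNA inhibitor together with the pmaxGFP plasmid, and sorted for GFP 24 hours later. One group there is labelled siThermomir, and is called inhibitor below. The other is labelled WT and control, and whether it received the non-human control inhibitor is not stated for the arrays. All cells come from 1 leukaemia line, and the groups of the inhibitor experiment hold only cells that took up the plasmid.

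Both proteins are small. Each carries an RNA recognition motif, the commonest RNA-binding fold, followed by a glycine-rich tail. Mild cold raises their transcripts, and they bind RNA in the nucleus and cytoplasm and affect RNA stability, polyadenylation and translation. CIRBP can also leave the cell and act on macrophages as a danger signal. RBM3 has been linked to the processing of microRNA precursors. Temperature-responsive microRNAs, called thermomiRs, are the subject of the study, so both the temperature and the inhibitor comparison bear on these genes.

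The stretch around the annotated start of each gene is shown because the brighter probe sets of both genes moved together between 37 °C and 40 °C. The sequences run from 250 bases before to 50 bases after the start, are taken from RefSeq on GRCh38.p14 and lie on the plus strand. The RBM3 window is chrX:48574234-48574533, with capitals marking pairs of the heat shock factor unit (GAANNTTC or TTCNNGAA), and the CIRBP window is chr19:1269082-1269381, with capitals marking GC boxes (GGGCGG on either strand).
RBM3: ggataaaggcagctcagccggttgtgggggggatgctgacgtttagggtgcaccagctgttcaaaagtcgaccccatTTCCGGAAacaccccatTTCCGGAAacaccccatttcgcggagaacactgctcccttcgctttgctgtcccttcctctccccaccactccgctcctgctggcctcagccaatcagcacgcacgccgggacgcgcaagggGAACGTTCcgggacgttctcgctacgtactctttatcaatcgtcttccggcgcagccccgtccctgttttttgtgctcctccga
CIRBP: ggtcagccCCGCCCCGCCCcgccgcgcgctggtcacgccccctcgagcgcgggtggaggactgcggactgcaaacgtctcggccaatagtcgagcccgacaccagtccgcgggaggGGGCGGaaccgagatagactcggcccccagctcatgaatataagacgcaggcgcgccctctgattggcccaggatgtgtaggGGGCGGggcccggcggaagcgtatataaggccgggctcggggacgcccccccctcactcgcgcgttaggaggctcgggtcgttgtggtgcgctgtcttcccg

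The RBM3 window holds 3 heat shock pairs. Of 35116 RefSeq windows of the same length, 13.5% hold at least 1 such pair and 0.194% hold 3 or more, a count that was looked up after the RBM3 matches had been seen. The first 2 pairs sit in a short stretch that repeats itself. All 3 pairs overlap matches to the core of the ETS site (CCGGAA on either strand, at least 1 in 17.2% of windows). RBM3 holds 6 such matches, but each TTCCGGAA pair gives 2 of them, which overlap on opposite strands. The CIRBP window holds none of these pairs and 4 GC boxes, of which at least 1 stands in 45.0% of windows, and the RBM3 window holds no GC box. Each holds the CCAAT box (CCAAT on either strand, in 34.6% of windows), with 1 match in RBM3 and 2 in CIRBP. The letters of the mild-cold response element described for CIRBP (TCCCCGCC on either strand, in 8.52% of windows) are in neither window. A match to letters is a description and shows no binding.

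The treatment protocol names miR-142, miR-143 and ThermoMIR-1 as inhibitor targets. The mature arms of miR-142 and miR-143, from RefSeq on GRCh38.p14, are shown because an inhibitor acts by pairing with them, and capitals mark the seed at bases 2 to 8.
hsa-miR-142-5p: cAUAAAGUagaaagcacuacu
hsa-miR-142-3p: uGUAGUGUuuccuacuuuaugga
hsa-miR-143-3p: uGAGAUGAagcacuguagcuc
hsa-miR-143-5p: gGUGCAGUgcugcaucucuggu
No seed is shared among these 4 arms. The arrays do not measure mature microRNAs, and which one was blocked on them is not stated.

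The arrays had medians between 5.72 and 5.87 on the log2 scale, and any 2 arrays of the same group had r = 0.9939 to 0.9984 over the probe sets. Whether replicates are separate cultures is not labelled. The p-values therefore reflect array-to-array spread alone, which may be technical, and 3 arrays per group limit the precision. The 7 macrophage markers examined (CD14, CD68, CSF1R, CD163, ITGAM, SPI1 and LYZ) were all above the 30th percentile of signal in every group, and their summed linear signal was 7754 to 7834 at 37 °C, 8585 to 9453 at 40 °C, 12121 to 12448 in controls and 7981 to 8341 with the inhibitor. By the brightest probe set of each of 17 measured markers of erythroid cells, lymphocytes, fibroblasts and epithelium, only GNLY, which encodes a granule protein of killer lymphocytes, was called in either comparison, at 0.38 for 40 °C and −0.56 for the inhibitor (adjusted p = 0.00183 and 0.00120). Fainter probe sets were called for CD3E (1 of 2, lower at 40 °C), COL1A1 (1 of 5, higher with the inhibitor) and KRT5 (1 of 2, lower with the inhibitor). Of the 5 GNLY probe sets, 3 were called higher and 1 lower at 40 °C, and 4 were called lower with the inhibitor. The GNLY group means lay between 9.50 and 11.36, whereas those of the defining lymphocyte markers CD3E, CD3D, MS4A1 and CD79A lay between log2 3.89 and 5.92. Within the inhibitor experiment the control probe sets differed as well. The poly-A spikes, bacterial RNAs added before labelling, were at log2 7.22 ± 0.37 in controls and 5.87 ± 0.32 with the inhibitor, and 18S rRNA signal at 12.75 ± 0.14 and 10.14 ± 0.41 (SD, n = 3). The 3 prime minus 5 prime signal of GAPDH, a sign of RNA integrity, was 1.04 ± 0.04 in controls and 0.72 ± 0.09 with the inhibitor, but 0.38 ± 0.02 at 37 °C and 0.44 ± 0.10 at 40 °C. The same measure of ACTB ran the other way within the inhibitor experiment, at 2.44 ± 0.09 in controls and 2.70 ± 0.16 with the inhibitor, against 1.55 ± 0.04 at 37 °C and 1.58 ± 0.22 at 40 °C.

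The first comparison asked how these transcripts respond to a fever-like temperature. The brighter probe sets of both genes fell, that of RBM3 by the most of any probe set tested. The brighter RBM3 probe set (11744146_x_at, called RBM3 1) read 12.13, 12.11 and 12.27 on the log2 scale at 37 °C and 8.45, 8.20 and 8.30 at 40 °C. All 3 warm arrays lay at least 3.66 below every array at 37 °C. The difference was −3.85 (SE 0.08, 95% interval −4.04 to −3.67), a 14.5-fold lower signal (limma, adjusted p = 1.20e-06). It ranked first of 49293 probe sets by decrease. In RNA from a whole culture, less transcript per cell and fewer cells carrying it cannot be told apart.

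CIRBP was read by a pair of bright probe sets. CIRBP 1 (11715692_a_at) read 10.93, 10.95 and 10.94 at 37 °C against 9.04, 8.94 and 8.96 at 40 °C, a spread of only 0.01 (SD, n = 3) in the cooler cells. Its log2 difference was −1.96 (SE 0.05), or 3.89-fold (adjusted p = 3.16e-06). CIRBP 2 (11715693_s_at) read 10.52, 10.63 and 10.55 against 8.71, 8.69 and 8.72. It fell by 1.86 (SE 0.05), or 3.63-fold (adjusted p = 4.39e-06). Groups did not overlap for either, and they ranked 9th and 17th by decrease among all probe sets.

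The faint probe sets of both genes did not follow. RBM3 2 (11760141_s_at) read 4.84, 4.64 and 4.89 at 37 °C and 4.52, 4.84 and 4.84 at 40 °C, so the groups overlapped. Its difference was −0.06 (SE 0.10, 95% interval −0.30 to 0.18, adjusted p = 0.768). CIRBP 3 (11748124_a_at) read 5.11, 5.04 and 5.22 against 4.96, 4.81 and 4.95, and its groups were 0.08 apart without overlap. It differed by −0.22 (SE 0.07) and missed the threshold (adjusted p = 0.0568). It passed in 3 of 14 alternative fits, with all 12 arrays in 1 fit (0.0469), a 30th percentile filter (0.0359) or array weights (0.0423), and missed it in the other 11. With each array's poly-A spike signal as a covariate the difference was −0.09 (SE 0.13, adjusted p = 0.725), and that of RBM3 2 was 0.27 (SE 0.15, adjusted p = 0.354). The spike signal was at most 7.90 at 37 °C and at least 7.915 at 40 °C. That fit therefore separates spike signal and temperature poorly, and no conclusion is drawn from it. In all, 3 of the 5 probe sets were called, each of them lower, where 24.6% of all probe sets were called, 11.8% lower and 12.8% higher. Groups did not overlap for 4 of the 5, against 38.1% of all probe sets.

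**Figure D1:**
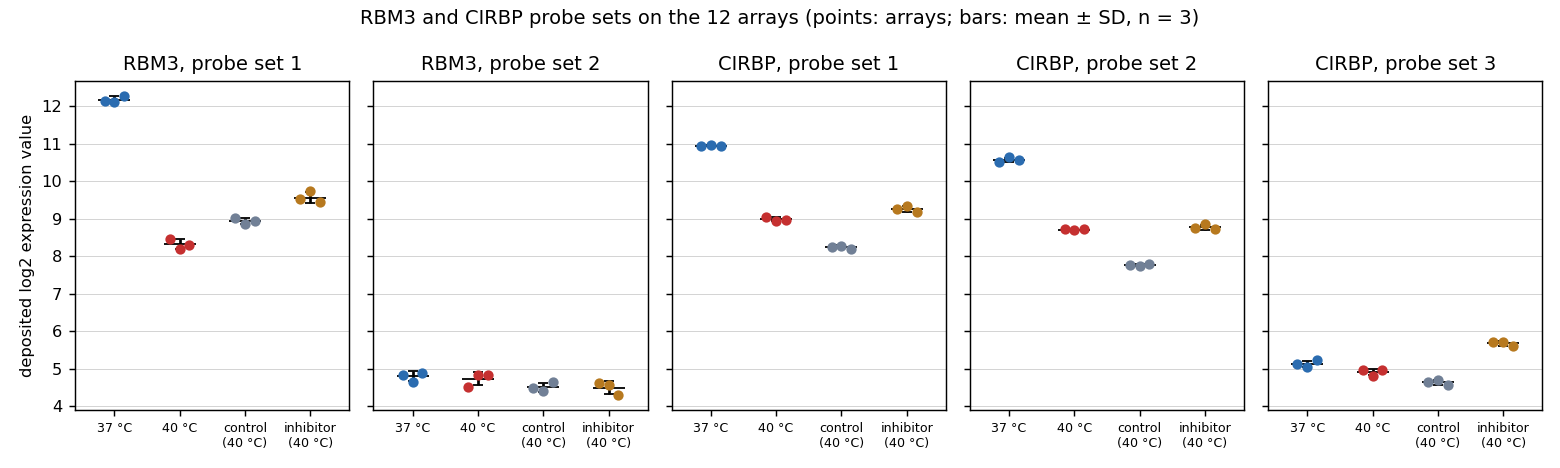
The deposited log2 value of each RBM3 and CIRBP probe set (vertical axis) on the 12 arrays, by group (horizontal axis), with points for arrays and bars for the mean and SD of 3. Levels can be compared between groups within a panel, not between panels. RBM3 1, CIRBP 1 and CIRBP 2 are highest at 37 °C, CIRBP 3 is highest with the inhibitor, and RBM3 2 lies between 4.30 and 4.89 throughout.

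The unequal changes were set against each other array by array. Of 20 pairings of probe sets, 10 in each comparison, the smallest p that 3 arrays against 3 allow is 0.1, or 0.133 after adjustment over the 20, so none could reach 0.05. The change of RBM3 1 minus that of RBM3 2 was −3.80 (two-sided exact permutation p = 0.1), against a within-group SD of 0.22 for that difference. The RBM3 1 change exceeded that of CIRBP 1 by 1.89, with a within-group SD of 0.08 (exact p = 0.1). CIRBP 1 and CIRBP 2 differed in their change by 0.10 (SD 0.05, exact p = 0.2). The faint probe sets therefore set the size of any average: with a gene's probe sets averaged, RBM3 differed by −1.96 and CIRBP by −1.35, both still called. Suffixes in the probe set names mark some designs as matching other sequences as well (s and x) or several transcripts of the gene (a). RBM3 1 carries the suffix x, and RBM3 2 and CIRBP 2 carry the suffix s. Probe sequences were not at hand, so which transcripts the bright and the faint probe sets read is not known here.

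The second comparison asked what a thermomiR inhibitor does in cells kept at 40 °C. RBM3 1 and all 3 CIRBP probe sets were higher with it, and RBM3 2 was not called. CIRBP rose on all 3 of its probe sets by nearly the same amount. CIRBP 1 read 9.26, 9.34 and 9.18 with the inhibitor against 8.25, 8.28 and 8.20 in controls, a difference of 1.02 (SE 0.08), or 2.02-fold (adjusted p = 6.49e-05). CIRBP 2 read 8.74, 8.85 and 8.72 against 7.75, 7.73 and 7.78, also 1.02 (SE 0.07, adjusted p = 5.55e-05). Groups were at least 0.90 apart on each.

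CIRBP 3, not called by temperature, read 5.70, 5.72 and 5.60 with the inhibitor and 4.65, 4.70 and 4.57 in controls. It rose by 1.03 (SE 0.08), or 2.05-fold (adjusted p = 6.14e-05). CIRBP 1 and CIRBP 3 thus changed alike to within 0.02 with the inhibitor (change of CIRBP 1 minus CIRBP 3 −0.02, exact p = 0.6, within-group SD 0.03). For temperature the same quantity was −1.74 (exact p = 0.1, within-group SD 0.08).

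RBM3 1 read 9.51, 9.73 and 9.44 with the inhibitor and 9.01, 8.85 and 8.94 in controls. The groups lay 0.43 apart, with a difference of 0.63 (SE 0.10, 95% interval 0.40 to 0.85), or 1.54-fold (adjusted p = 0.00191). RBM3 2 read 4.62, 4.56 and 4.30 against 4.48, 4.39 and 4.63, with overlapping groups and a difference of −0.01 (SE 0.11, adjusted p = 0.970). The RBM3 1 change was smaller than that of CIRBP 1 by 0.39 (exact p = 0.1, within-group SD 0.09). In all, 4 of the 5 probe sets were called, each of them higher, where 30% of all probe sets were called, 14.8% higher and 15.2% lower. Groups did not overlap for 4 of the 5, against 43.1% of all.

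**Figure D2:**
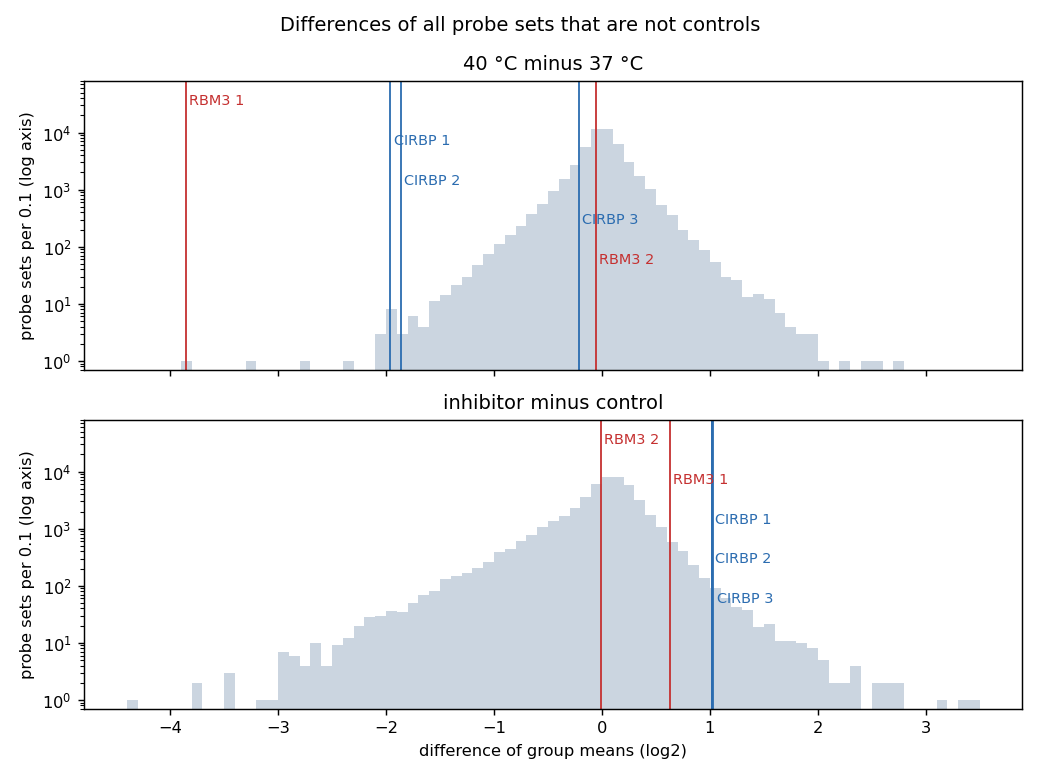
Number of probe sets that are not controls per 0.1 of difference (vertical log axis) by the log2 difference of group means (horizontal axis), for 40 °C minus 37 °C (top) and inhibitor minus control (bottom), with the RBM3 and CIRBP probe sets as lines. RBM3 1 is the leftmost value at the top, at −3.85, and the 3 CIRBP probe sets lie at 1.02 to 1.03 at the bottom.

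With each array's poly-A spike signal added to the fit as a covariate, the inhibitor differences were as large, at 0.67 for RBM3 1 and 1.21, 1.06 and 1.25 for CIRBP 1, 2 and 3, but none passed (adjusted p = 0.376, 0.0755, 0.107 and 0.0658). Their SEs rose to between 0.21 and 0.28. The spike signal was at least 6.98 in controls and at most 6.08 with the inhibitor, so this fit separates it poorly from the treatment. With the probe sets of RBM3 averaged its difference was 0.31 (adjusted p = 0.0247).

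The levels of the 4 groups were then put in order with all arrays in 1 fit. Contrasts across the experiments differ in nucleofection, sorting and RNA handling as well, which cannot be told apart from the labelled treatment, and of all probe sets 66.7% were called between control and 37 °C, 68.9% between inhibitor and 37 °C, 65.8% between control and 40 °C and 67.8% between inhibitor and 40 °C. Within the experiments this fit called 21.1% for temperature and 38.4% for the inhibitor. RBM3 1 had its highest mean at 37 °C (12.17 ± 0.09), followed by inhibitor (9.56 ± 0.15), control (8.93 ± 0.08) and 40 °C (8.32 ± 0.13; SD, n = 3 each). Every step passed, by 2.61, 0.63 and 0.62 (SE 0.09 each, adjusted p = 1.25e-10, 0.000126 and 6.17e-05). The inhibitor cells thus stayed 6.11-fold below the 37 °C cells.

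CIRBP 1 had another order below 37 °C. It ran from 10.94 ± 0.01 at 37 °C to 9.26 ± 0.08 with the inhibitor, 8.98 ± 0.05 at 40 °C and 8.24 ± 0.04 in controls, with steps of 1.68, 0.28 and 0.74 (SE 0.06 each) that all passed (adjusted p = 1.71e-10, 0.00124 and 3.53e-07). CIRBP 2 had the same order, at 10.57 ± 0.06, 8.77 ± 0.07, 8.71 ± 0.02 and 7.75 ± 0.03. Its inhibitor and 40 °C groups differed by 0.06 (SE 0.06, adjusted p = 0.354), a step that was called at 0.14 after quantile normalization and was −0.03 after centring on the median. CIRBP 3 was highest with the inhibitor (5.67 ± 0.06), then at 37 °C (5.12 ± 0.09), at 40 °C (4.91 ± 0.08) and in controls (4.64 ± 0.07), each step called (adjusted p = 1.83e-05, 0.0469 and 0.00520). For RBM3 2, no neighbouring step passed with all arrays. Its control group differed from 40 °C by −0.23 (adjusted p = 0.0866), and this passed at −0.34 without replicate 1 at 40 °C, at −0.43 after quantile normalization and at −0.33 after centring. Its levels at 37 °C were above both groups of the inhibitor experiment, with called differences of −0.29 for control and −0.30 for inhibitor (adjusted p = 0.0378 and 0.0331). The inhibitor difference was −0.55 after quantile normalization and was not called at −0.20 without inhibitor replicate 3, −0.27 without replicate 1 at 37 °C or −0.25 without replicate 3 at 37 °C.

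Between nucleofected control cells and untransfected cells at 40 °C, RBM3 1 differed in the opposite direction to the CIRBP probe sets, but RBM3 2 did not. Controls were 1.53-fold higher for RBM3 1 and 1.67-fold lower for CIRBP 1, each called, and the change of RBM3 1 exceeded that of CIRBP 1 by 1.35 (exact p = 0.1, the smallest possible). Control CIRBP 2 was 1.94-fold lower (adjusted p = 2.79e-08) and CIRBP 3 1.20-fold lower. The directions of RBM3 1 and the 3 CIRBP probe sets held under quantile normalization and under centring. RBM3 2 was lower in controls too, by the values given above, and passed under both of these scalings.

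Over the 12 arrays RBM3 1 and CIRBP 1 correlated at r = 0.914, and CIRBP 1 and CIRBP 2 at r = 0.996. The faint CIRBP 3 correlated with CIRBP 1 at r = 0.377 and RBM3 2 with RBM3 1 at r = 0.346. With each group's mean taken out, the first 2 values were 0.690 and 0.507. The arrays share groups and normalization, so these values only describe the profiles.

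The profiles most like each gene were found by Pearson r over the 12 arrays with its brightest probe set, among 3109 other genes whose group means spanned at least 1. The 5 nearest RBM3 were UQCC5, an assembly factor of respiratory complex III (r = 0.991), COX11, a copper chaperone of cytochrome oxidase (0.966), the amino acid transporter SLC36A4 (0.960), the surface protein CD109 (0.958) and the lipase DDHD2 (0.945). UQCC5, with 1 probe set, was at log2 9.50 at 37 °C, 8.14 at 40 °C, 8.27 in controls and 8.52 with the inhibitor. Each of the 5 was lower at 40 °C, by 1.14 to 1.36, although 2 of the 6 COX11 probe sets were called lower. CIRBP itself ranked 10th on this list.

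Nearest CIRBP were SRSF6, a splicing factor of the SR family (r = 0.994), ATG2B, a lipid transfer protein of autophagy (0.986), PAN3, a subunit of a poly(A) nuclease (0.985), the noncoding RNA DLEU2 (0.981) and PEX3, needed to form peroxisomes (0.979). SRSF6 was at 9.55 at 37 °C, 8.71 at 40 °C, 8.42 in controls and 8.83 with the inhibitor, in the same order as CIRBP 2 but over a smaller span. Only 1 of the 2 SRSF6 probe sets, 1 of 4 for ATG2B, 1 of 3 for PAN3 and 1 of 3 for DLEU2 was called lower at 40 °C, against 4 of 4 for PEX3. RBM3 ranked 42nd on the CIRBP list.

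**Figure D3:**
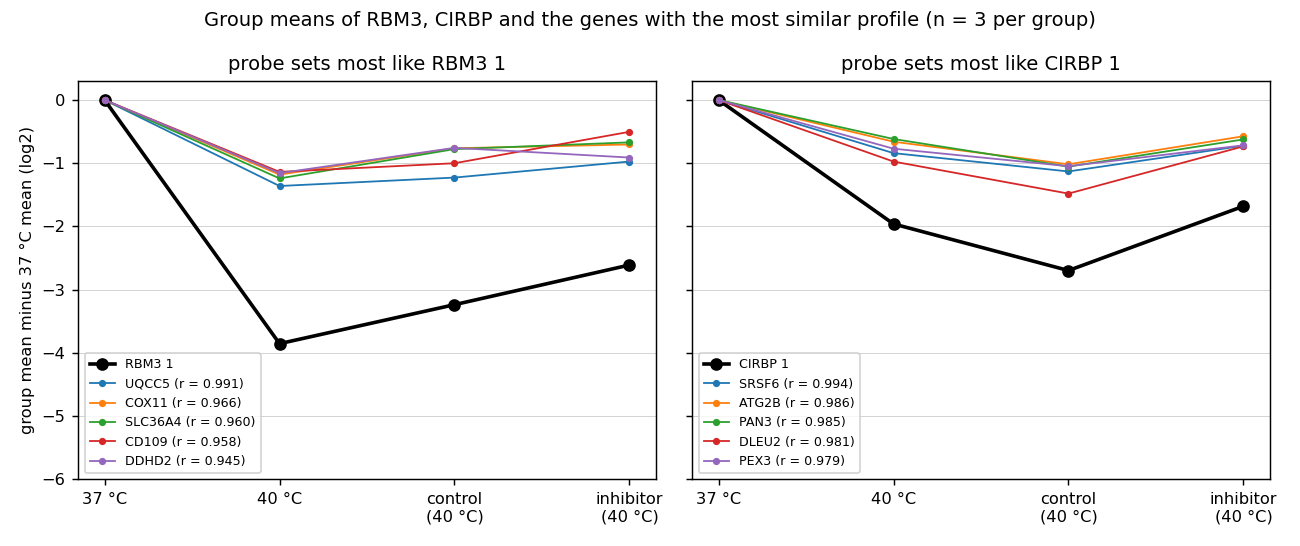
Group means minus the 37 °C mean (log2, vertical axis) in the 4 groups (horizontal axis) for RBM3 1 (left) and CIRBP 1 (right), in black, and for the 5 genes with the highest Pearson r over 12 arrays, in colour, n = 3 per group. The genes like RBM3 1 are lowest at 40 °C, those like CIRBP 1 in controls, and all span less than the gene they resemble.

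Genes that act with or around the cold-inducible proteins were read by the brightest probe set of each, so their counts are set beside all 18132 genes, of which 14.1% were called higher and 11.9% lower at 40 °C (median difference 0.01), and 17.6% and 13.7% with the inhibitor (median 0.09). Of 7 measured cold-shock domain proteins, which bind single-stranded nucleic acids through another fold, 2 rose at 40 °C and none fell (median 0.09). These were YBX3, higher by 0.20 (SE 0.05, adjusted p = 0.0208), and CARHSP1, higher by 0.28 (SE 0.05, adjusted p = 0.00496), while the abundant YBX1 differed by 0.09 (SE 0.05). With the inhibitor CARHSP1 rose by 0.25 (adjusted p = 0.0438) and no other member was called (median 0.03), and CARHSP1 itself was not called after median centring. LIN28A was below the 30th percentile of signal, with group means of log2 2.50 to 2.61, where a fall may not show.

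The genes named for RBMX share the RNA recognition motif with RBM3 and CIRBP. At 40 °C, RBMX was lower by 0.18 on the log2 scale (difference −0.18, SE 0.05, adjusted p = 0.0423) and RBMXL1 by more (−0.36, SE 0.07, adjusted p = 0.00796), while RBMX2 and RBMXL2 were not called (median of the 4 −0.10). RBMXL1 is a processed copy of RBMX, so their probe sets may share transcripts. No member was called with the inhibitor (median 0.03).

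Kinases and factors that act on cold-responsive transcripts went both ways. At 40 °C, 3 of 7 fell and 2 rose (median −0.15). CLK1 and CLK4, kinases of SR splicing factors, were lower by 0.33 and 0.40 (differences −0.33 and −0.40, adjusted p = 0.00376 and 0.00163), and SP1, a factor that binds GC boxes, by 0.20 (−0.20, adjusted p = 0.0214), although another SP1 probe set was called higher. HSF1, the heat shock factor, was higher by 0.27 (adjusted p = 0.0134), and CLK2 by 0.18 (adjusted p = 0.0465), which did not pass after median centring. With the inhibitor 2 rose and 3 fell (median 0.04). CLK1 was 2.71-fold lower (log2 9.82 ± 0.06 against 11.25 ± 0.04, adjusted p = 1.31e-05), CLK2 was 1.55-fold and HSF1 1.33-fold higher. HNRNPH1, a splicing regulator of RBM3, was called in neither comparison (−0.15 and 0.04).

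Enzymes that modify CIRBP and its import receptor changed little at 40 °C. Of 5, TNPO1, the nuclear import receptor transportin, rose by 0.22 (SE 0.05, adjusted p = 0.0154) and SRPK1, a kinase of arginine-serine repeats, by 0.29 (adjusted p = 0.00492), and none fell (median 0.08). The arginine methyltransferase PRMT1 differed by −0.23 (SE 0.07, adjusted p = 0.0580), and was called lower after median centring. With the inhibitor PRMT1 rose by 0.51 (adjusted p = 0.00179) and SRPK1 by 0.26 (adjusted p = 0.0425), each with another probe set called lower (median 0.19). SRPK1 did not pass after median centring, and GSK3B, a kinase of CIRBP, passed after quantile normalization.

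Receptors and partners through which CIRBP outside the cell acts on macrophages were measured for 5 genes. At 40 °C, LY96, the co-receptor MD-2, rose by 0.26 (SE 0.06), CD14 by 0.24 and the receptor IL6R by 0.18, whereas TLR4 was called lower (−0.17, adjusted p = 0.0496; median of the 5 0.18). IL6R and TLR4 did not pass after median centring. Larger differences came with the inhibitor. TREM1, an activating receptor of myeloid cells, rose 2.22-fold (6.91 ± 0.09 against 5.76 ± 0.13, adjusted p = 8.93e-05). LY96 was 2.19-fold lower (7.29 ± 0.12 against 8.42 ± 0.06) and CD14 1.73-fold lower, and TLR4 was not called (0.16, SE 0.10; median −0.29). CD14 is also a macrophage marker, and of 7 such markers 4 fell and 1 rose with the inhibitor, LYZ falling by the most (5.07-fold). The 1 that rose was CSF1R (0.28), with 1 of its 3 probe sets called higher and 1 lower. At 40 °C, 5 of these markers were higher and 1 lower. Their part in the receptor values was not tested.

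Transcripts reported as bound by RBM3 or CIRBP had 2 of 6 higher at 40 °C and none lower (median 0.17). RTN3, a reticulon of the endoplasmic reticulum, was higher by 0.39 (SE 0.06, adjusted p = 0.00163), with 6 of its 7 probe sets called, and the checkpoint kinase ATR by 0.32 (SE 0.07, adjusted p = 0.0094). TXN, which encodes thioredoxin, differed by −0.03 (SE 0.05). With the inhibitor ATR and CLOCK, a circadian activator, were higher by 0.47 and 0.43, the latter with another probe set called lower, and HIF1A, the oxygen-responsive factor, was lower on all 8 of its probe sets (brightest −0.29, SE 0.07, adjusted p = 0.0160; median of the list 0.17). On their brightest probe sets RTN3 and TXN were not called with the inhibitor (−0.19 and 0.14), although 5 of 7 RTN3 probe sets were called lower and 4 of 5 for TXN higher. RPA2, a DNA-binding replication protein, was called higher there after quantile normalization only.

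Of 10 genes of microRNA processing, 3 rose and 1 fell at 40 °C (median 0.10). The Argonaute genes AGO2 and AGO3 were higher by 0.46 and 0.30, and XPO5, which exports precursors from the nucleus, by 0.40. AGO4 was 1.54-fold lower (adjusted p = 0.000252). For XPO5 1 of 2 probe sets was called higher, and for AGO4 2 of 4 were called lower. DICER1, which cuts the precursors, differed by 0.08 (SE 0.06). With the inhibitor 6 of the 10 rose and 1 fell (median 0.47). AGO2 was 2.06-fold (10.28 ± 0.09 against 9.24 ± 0.09, adjusted p = 9.31e-05), DGCR8 1.77-fold and DICER1 1.54-fold higher. Only 1 of the 2 DGCR8 and 1 of the 4 DICER1 probe sets were called. AGO3 was 1.39-fold lower, with 3 of its 4 probe sets called lower and 1 higher.

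Heat-induced chaperones ran opposite to the brighter RBM3 and CIRBP probe sets at 40 °C, with 8 of 9 higher and none lower (median 0.94). HSPA4L was 3.38-fold, HSPA1B 3.06-fold and DNAJB1 2.10-fold higher. With the inhibitor 2 rose and 2 fell (median 0.18). HSPA6, a stress-induced member of the HSP70 family, was 5.12-fold lower (9.41 against 11.77) and HSPA1B 1.71-fold lower (11.80 against 12.58). HSPA4L was 1.62-fold and BAG3 1.21-fold higher. Untransfected 40 °C cells, which also differ in handling, were below both groups for HSPA6 (5.68) and HSPA1B (10.79). Control means were below those of the 40 °C cells for HSPA4L, HSPA8 and HSP90AA1. BAG3 did not pass after median centring, and HSP90AA1 and HSPA8 passed as higher after quantile normalization. Of the 9 HSPA8 probe sets, 3 were called higher and 4 lower with the inhibitor. HSPA1B may include its near-identical copy HSPA1A.

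**Figure D4:**
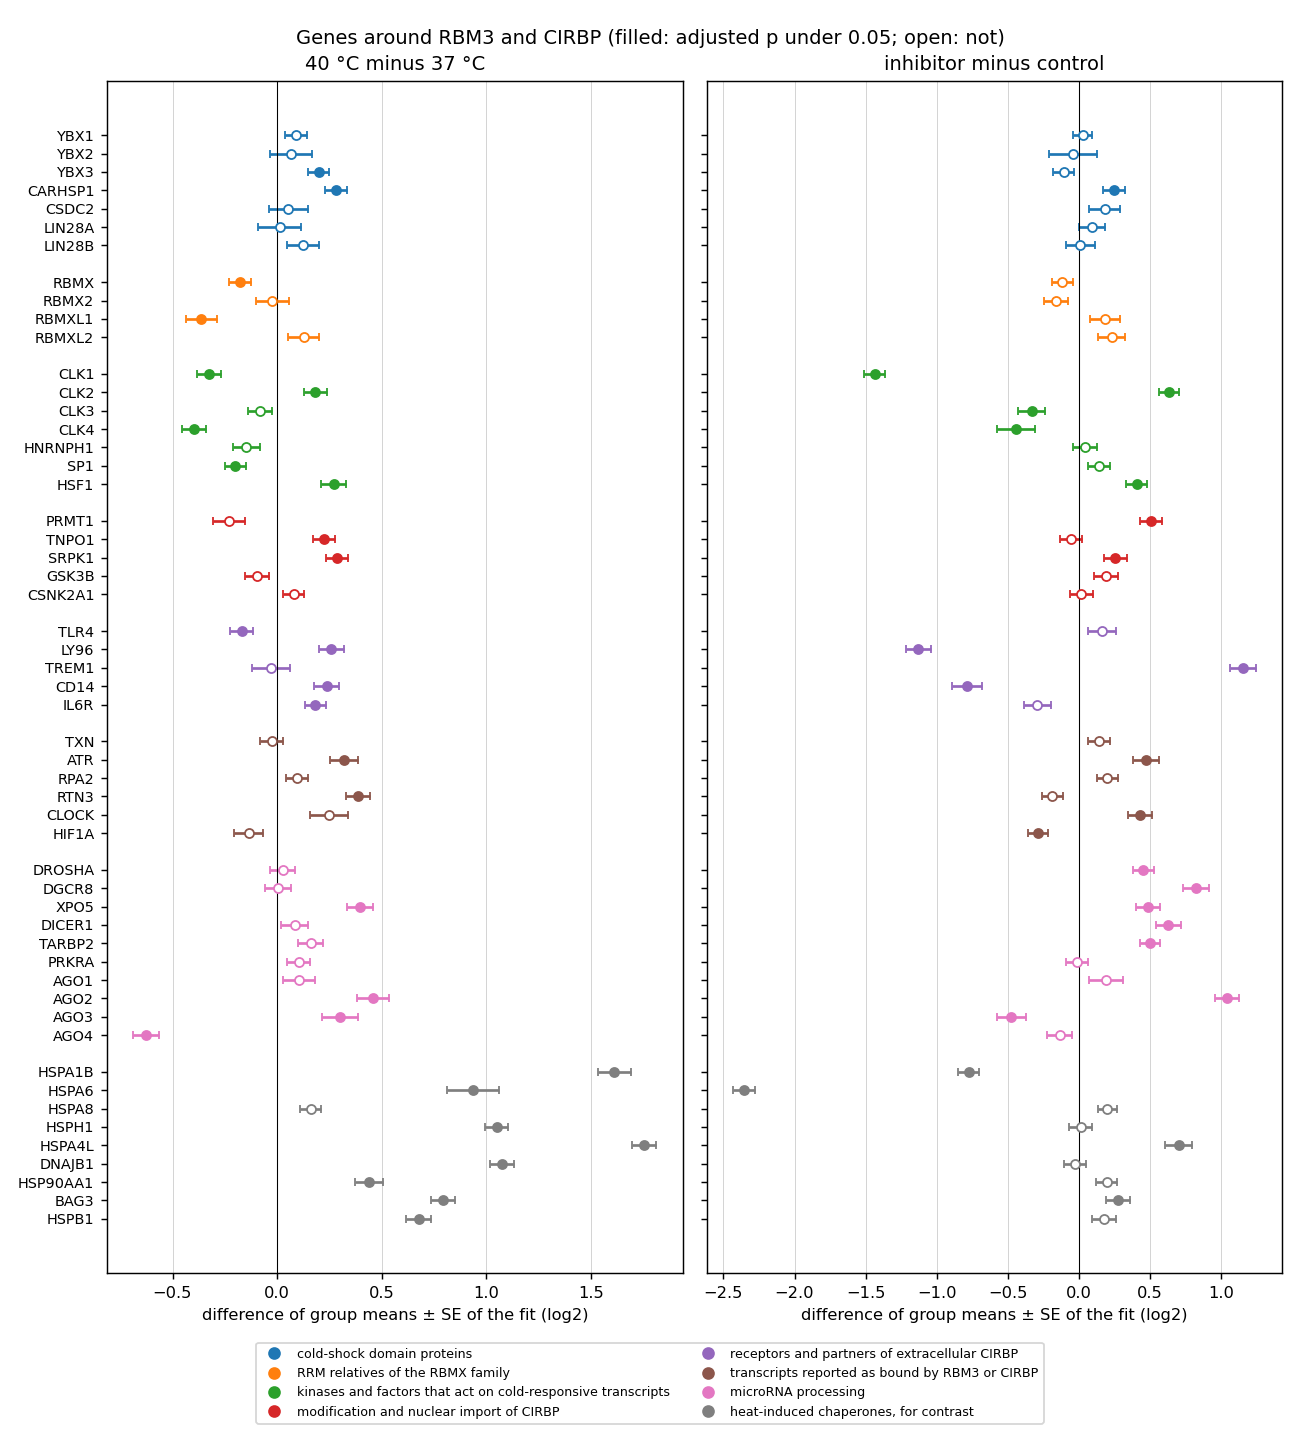
Log2 difference of group means with the SE of the fit (horizontal axes) for genes around RBM3 and CIRBP (vertical axis, coloured by list), at 40 °C minus 37 °C (left) and inhibitor minus control (right), n = 3 per group; filled points passed an adjusted p of 0.05. The axes differ in range. Cold-shock domain proteins lie between 0.01 and 0.28 on the left, and chaperones between 0.16 and 1.76.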

How the data were processed

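The authors deposited log2 expression values of 49395 probe sets on 12 PrimeView arrays. Their unit follows from the values, and software, background correction and normalization were not given in the sources used here. Arrays were grouped by title. Gene symbols came from the platform's annotation. Of the probe sets, 102 are controls, and the other 49293 were all tested, without a filter. Each comparison was fitted alone with limma 3.58.1 (lmFit, then eBayes; two-sided; R 4.3.3) with Benjamini-Hochberg adjustment over all 49293 and a threshold of 0.05. Group order came from 1 fit of 12 arrays. Probe set pairs were compared with exact permutation tests. The 30th percentile of signal is log2 4.48. Beyond the members, the text names the 5 most similar genes for each, up to 3 called genes of each list by p in each comparison, members needed to read a list, and the markers. SD and n refer to the arrays of a group, SE to the fit. Members, lists and tests were chosen with earlier results of these data known. The fit was tested on simulated data with 50 changed probe sets of each size. A log2 size of 0.25 was recovered in 4% for temperature and 2% for the inhibitor. The shares were 60% and 16% at 0.5, and 94% and 76% at 1. Small differences could thus be missed. The simulated data gave 131 and 96 calls, far fewer than the deposited data, so these shares do not carry over directly. Figures used Python 3.11.15 with matplotlib 3.10.9.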

Additional observations from a re-analysis of the deposited data

How the results depend on the processing

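RBM3 1, CIRBP 1 and CIRBP 2 kept direction and call for temperature under all alternatives run, and for the inhibitor under all but the poly-A spike covariate, where RBM3 1 and CIRBP 1, 2 and 3 differed by 0.67, 1.21, 1.06 and 1.25 without passing. CIRBP 3 passed for temperature at −0.22 with all 12 arrays in 1 fit, the 30th percentile filter and array weights, and missed the threshold in the other 11 of 14 alternatives, over which it ranged from −0.26 to −0.09 (adjusted p up to 0.725, with the spike covariate). RBM3 2 passed against 40 °C after quantile normalization (−0.43 for control, −0.50 for inhibitor) and centring (−0.33 for each), and leaving out 1 array gave −0.34 to −0.18 for control and −0.35 to −0.14 for inhibitor, passing without replicate 1 at 40 °C. Its inhibitor minus 37 °C difference was −0.55 after quantile normalization and −0.39 after centring. It ranged from −0.37 to −0.20 on leaving out 1 array, and the call was lost without inhibitor replicate 3 or without replicate 1 or 3 at 37 °C. CIRBP 2, inhibitor against 40 °C, passed at 0.14 with quantile normalization. No called gene of the lists changed direction under quantile normalization or centring. The alternatives for the lists and for contrasts with 40 °C and 37 °C across experiments were added after seeing the data. For temperature 12108 probe sets were called, against 5472 with 1 per gene and 5182 with the mean per gene, where fewer features were tested, and 2724 with the spike covariate. For the inhibitor 14786 were called, against 6290 and 5861 per gene, 226 with the spike covariate and 23739 with array weights. In both comparisons the spike signal did not overlap between the groups, so the fit with it separates spike signal and treatment poorly. The causes of the counts of 226 and 23739 were not tested. Same-numbered arrays correlated in their deviations at −0.06, −0.05 and 0.16 for temperature and −0.06, −0.47 and −0.07 for the inhibitor. Deviations from a mean of 3 arrays depend on each other, so these values cannot decide whether the numbers pair the samples. With the replicate block 10621 and 11302 probe sets were called, and RBM3 1 and CIRBP 1 kept their calls at −3.85 and −1.96 for temperature and 0.63 and 1.02 for the inhibitor. Faint probe sets and small differences are limited by signal and by 3 arrays per group.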
